A study of Caenorhabditis elegans with 2 samples.

Results

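Small nuclear RNA (snRNA) genes other than those for the SL2 spliced leader were examined in a map of RNA polymerase II in Caenorhabditis elegans. The map comes from ChIP-seq with an antibody to AMA-1, the large catalytic subunit of the enzyme, on whole L2 larvae of the wild-type strain N2, of mixed sex. The series holds 1 group of 2 biological replicates, with no other genotype, stage or treatment, so no test between groups was possible and values of single replicates carry no SD. The animals were assayed whole, and fewer cells using a gene cannot be told apart from less polymerase in each cell. The genes were all nuclear genes of biotype snRNA in the Ensembl annotation of WBcel235 (ce11) whose name does not start with sls-2, which gave 111 of 46890 nuclear genes. They are 22 to 187 bp long, with a median of 105 bp. Chromosomes IV and V hold 36 and 40 of them, chromosome II holds 13, chromosome I 12, chromosome III 7 and the X chromosome 3.

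In animals, snRNAs form the RNA core of the spliceosome, the machine that removes introns from pre-mRNA. U1 RNA pairs with the start of the intron, U2 with the branch site, U5 holds the exons together, and U4 and U6 enter as a pair before U6 takes part in the catalytic centre. All but U6 are made by RNA polymerase II, from short genes whose start is set by an upstream element read by the SNAPc complex and whose 3′ end is cut by the Integrator complex, while U6 is made by RNA polymerase III. Nematodes add spliced leader RNAs, which donate their first bases to the start of many messenger RNAs, and the SmY RNAs, which are linked to that reaction.

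The annotation gives most of these genes no U name, so they were grouped by sequence. Genes with an identity of at least 80%, linked in chains, formed 28 families, of which 19 had 1 gene and 7 had 5 or more. Those 7 held 88 of the 111 genes, and only 76 distinct sequences occurred, with 44 genes matching another letter for letter. One gene is shown for each of 4 families that AMA-1 reached, because the letters tell the families apart. Short runs were searched on the RNA strand: ACTTACCTG, the stretch by which U1 RNA is known to pair with the intron start, ATTTTTG, which resembles the site of the Sm protein ring, and ACAGAGA, known from U6 RNA. Capitals mark the first and the second of these. Each sequence is the reference (ce11), 5′ to 3′ on the gene's strand.
sup-6: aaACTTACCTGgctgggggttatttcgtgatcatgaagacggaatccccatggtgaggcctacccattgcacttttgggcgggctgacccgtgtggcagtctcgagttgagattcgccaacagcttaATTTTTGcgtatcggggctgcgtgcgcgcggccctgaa
Y57G11C.35: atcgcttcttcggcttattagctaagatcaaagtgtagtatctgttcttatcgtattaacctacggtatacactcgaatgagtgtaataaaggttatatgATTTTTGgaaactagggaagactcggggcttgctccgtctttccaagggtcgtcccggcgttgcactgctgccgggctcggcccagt
C52E4.8: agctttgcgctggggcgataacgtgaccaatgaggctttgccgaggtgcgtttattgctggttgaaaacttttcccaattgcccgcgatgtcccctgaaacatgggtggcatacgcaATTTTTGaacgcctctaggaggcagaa
smy-1: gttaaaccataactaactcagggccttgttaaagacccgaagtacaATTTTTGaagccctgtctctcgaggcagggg
These lie at chrII:12944803-12944967 on the minus strand, chrIV:14764848-14765034 on the minus strand, chrV:11980118-11980261 on the plus strand and chrIV:9511763-9511839 on the minus strand. Y57G11C.35 belongs to the family named after F08G2.10.

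The letters followed the families. The U1 run ACTTACCTG was present in 12 of 13 genes of the sup-6 family and in none of the other members, and in 0.0159% of other noncoding genes of 68 to 187 bp. The U6 run ACAGAGA stood in 22 of 23 genes of the W05B2.8 family and in 1.27% of those other genes. ATTTTTG occurred in 59 of 111 members (53.2%), among them every gene of the sup-6, F08G2.10, C52E4.8 and smy-7 families, and in none of the W05B2.8 family; 4.37% of other noncoding genes of that length hold it. A match is a description of letters and assigns no function.

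AMA-1 was found at a minority of snRNA genes, at most of which the peak signal exceeded the median of all optimal peaks. Genes counted as occupied if a summit of the optimal list, the authors' reproducible set of 1861 peaks, lay inside it or within 500 bp of either end. By that rule 16 of 111 genes were occupied (14.4%, 95% Wilson interval 9.07% to 22.1%). In tiles of 1105 bp along the nuclear genome, as long as a median gene with its flanks, 1.88% held such a summit, and of other noncoding genes of 68 to 187 bp 5.43% were occupied. The 16 genes share 15 strongest peaks, since mir-1831, a 22-base microRNA gene annotated inside sup-39, has the same one as sup-39. The median signal of these 15 was 112.8 (49.2 to 638.7), against 65.5 for all optimal peaks. Of them 11 exceeded that median and 6 ranked among the strongest 186 of the 1861 peaks. The median peak width was 370 bp in both sets. That exact width recurs at many peaks, so the equal medians do not compare the sets. Widths ran from 177 to 469 bp at members and from 92 to 3082 bp among all optimal peaks.

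The lower part of the lists gave a different picture. In the whole pooled list, which reaches down into background, 33 of 111 genes had a summit (29.7%), against 23.9% of tiles and 33.6% of other noncoding genes of that length. The whole lists of replicate 1 and replicate 2 reached 30 and 38 of the 111 genes (27.0% and 34.2%), with 23.7% and 24.1% of tiles reached. In both lists lay 26 of the 111 genes, against 14.1% of tiles. No list held a summit at 68 genes. The share of genes reached was several-fold that of tiles in the optimal list and close to it in the pooled list.

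**Figure D1:**
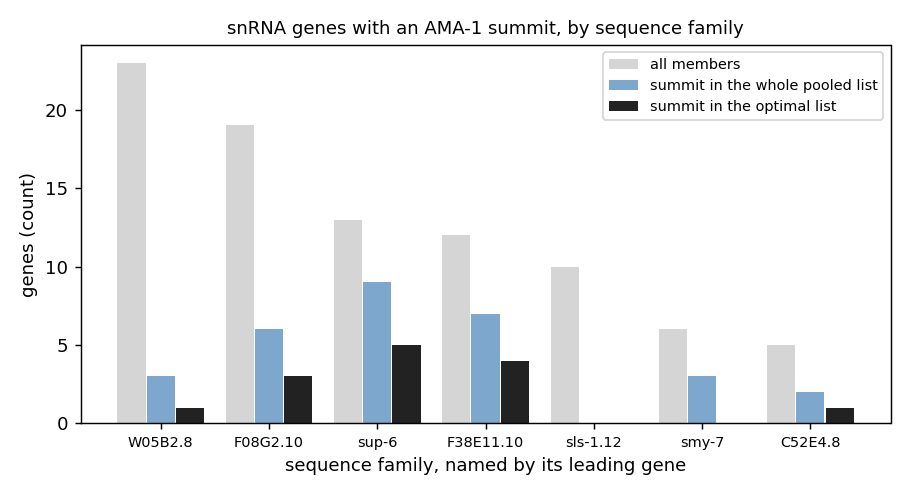
Number of snRNA genes in each sequence family of 5 or more genes (grey), with a summit in the whole pooled list (blue) and in the optimal list (black). The sup-6 and F38E11.10 families hold 5 and 4 occupied genes, and the sls-1.12 family has no summit in either list.

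The sup-6 family, whose letters include the U1 run, held the strongest peak. Genetic work in C. elegans identified sup-6 and sup-39 as U1 snRNA genes through mutations that suppress splicing defects. Of its 13 genes of 156 to 170 bp, 5 were occupied (38.5%, 17.7% to 64.5%) and 9 had a pooled summit. At sup-6 the signal was 638.7 in the optimal list, 343.3 in replicate 1 and 382.3 in replicate 2, and the peak ranked 7 of 1861. In replicate 2 alone it ranked 4 and in replicate 1 alone 16.

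The other 4 occupied genes of that family were weaker, by a wide range. At sup-39 the optimal signal was 195.6, with 118.1 in replicate 1 and 92.3 in replicate 2. For T08G5.11 the values were 127.7, 76.7 and 69.2 in the same order. H27M09.6, on chromosome I, had 63.4, 25.5 and 39.1, and its replicate 1 peak fell outside the 1861 strongest of that replicate. The weakest occupied gene was F08H9.11, with 49.2 in the optimal list, no summit in replicate 1 and 10.6 in replicate 2, where it ranked 7148. F08H9.11 thus had no strong peak in either replicate alone.

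A second optimal summit lay in the windows of sup-6, F08G2.10 and sup-39, and in that of mir-1831 inside sup-39, so that the windows hold 18 optimal summits in all. At sup-6 a second summit of signal 182.6 lay 208 bp from the first, 15 bp inside the 5′ end. The sup-39 window had a second one of 100.6, 200 bp from the first and 9 bp before the gene. F08G2.10 had a second one of 56.8, also 200 bp from the first, 36 bp inside its 5′ end. In the windows of sup-6, sup-39 and F08G2.10 the stronger summit lay past the 3′ end and the weaker one at the 5′ end. A pooled pair of the same kind was seen at H27M09.6, where the signals were 63.4 past the 3′ end and 39.4 before the gene, 219 bp apart.

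The F38E11.10 family, of 117 to 126 bp, had 4 of 12 genes occupied (33.3%, 13.8% to 60.9%), and 7 with a pooled summit. Its genes lack the U1 and U6 runs, and 11 of 12 hold ATTTTTG. F38E11.10 had a signal of 426.2 in the optimal list, 264.4 in replicate 1 and 164.7 in replicate 2, and F32B5.9 on chromosome I had 373.9, 246.8 and 177.7. These ranked 16 and 21 of the optimal list, behind sup-6. F42C5.12 had 72.5, 59.4 and 23.6. F38E11.11, whose sequence equals that of F38E11.10 letter for letter, had only 52.8, 34.8 and 16.5, an optimal signal well below that of its copy. No 50-base stretch of either copy is unique, so reads from inside the gene could come from both.

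Among the 19 genes of 185 to 187 bp around F08G2.10, 18 of which hold GTAGTA, the letters by which U2 RNA is known to pair with the branch site, 3 were occupied (15.8%, 5.52% to 37.6%). F08G2.10 had a signal of 112.8 in the optimal list, 53.6 in replicate 1 and 56.2 in replicate 2. Y57G11C.35 had 98.1, 48.9 and 47.2, and F08G2.11 had 50.1, 30.8 and 25.9. F08G2.10 ranked 765 in replicate 1 and 134 in replicate 2, Y57G11C.35 ranked 965 and 196, and F08G2.11 was outside the strongest peaks of replicate 1. In the C52E4.8 family of 142 to 144 bp, 1 of 5 genes was occupied: C52E4.8 itself, with 178.6 in the optimal list, 115.2 in replicate 1 and 94.2 in replicate 2. Its relative F10D2.13 had a pooled signal of 8.88, near the bottom of that list.

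The family with the U6 run stood lowest among the large families with any occupied gene. Of 23 genes around W05B2.8, 1 was occupied (4.35%, 0.772% to 21.0%) and 3 had a pooled summit. W05B2.8 had a signal of 86.4 in the optimal list, 49.01 in replicate 1 and 38.98 in replicate 2. The gene lies inside dhc-4 on the same strand, and its summit was the only one of the 15 upstream of an snRNA gene, 25 bp before the 5′ end. It is 1 of 14 genes with the same sequence, and R07E5.16 was the only other of these with a pooled summit (28.3). F54D8.7 had a pooled signal of 42.8, with 26.3 in replicate 1 and 23.4 in replicate 2. The intervals of this family and of the sup-6 family overlap, so with these counts the lower share is a description.

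The SmY genes, 10 in number, had 1 occupied gene. At smy-1 the signal was 141.0 in the optimal list, 115.2 in replicate 1 and 25.1 in replicate 2, ranking 137 in the first replicate and 1034 in the second. The summit lay 388 bp past the gene's 3′ end, inside C33A12.3, the farthest of the 15. The clustered genes smy-4, smy-5 and smy-6 had pooled signals of 14.9, 9.76 and 9.76, the last value being 1 shared peak, and no summit in replicate 2. No pooled summit lay at smy-7, smy-8, smy-9, smy-10, smy-11 or smy-12, although their windows are unique sequence throughout or nearly so (99.6% to 100% of 50-base stretches).

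The 12 SL1 genes, sls-1.1 to sls-1.12, had no summit in any list. They stand in an array of 13954 bp on chromosome V, with a median of 976 bp from start to start, in which the optimal, pooled and replicate lists hold 0 summits. Of each gene's window a median of 6.77% (0% to 35.3%) of 50-base stretches occurs once in the genome. SL1 RNA is abundant in worms, and whether the lack of summits reflects reads that could not be placed was not tested.

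**Figure D2:**
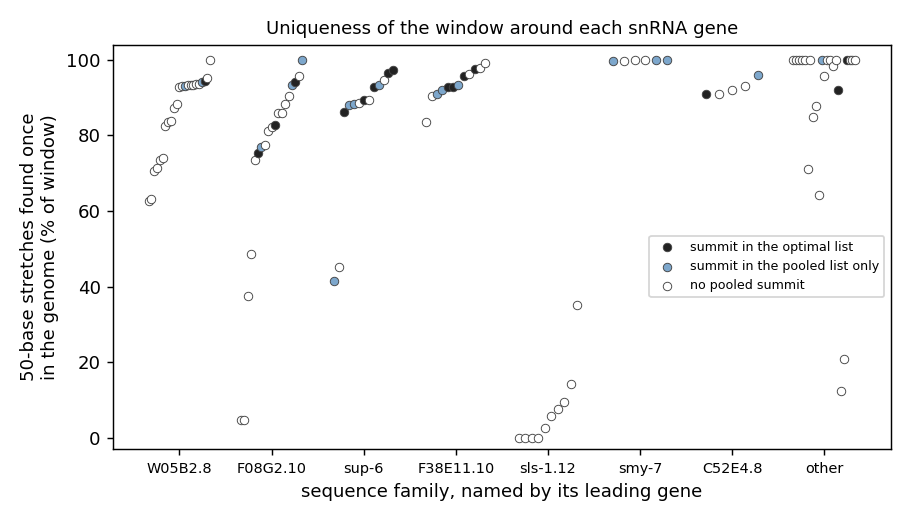
Share of 50-base stretches that occur once in the nuclear genome, within each snRNA gene and 500 bp on either side, by sequence family. Black points have an optimal summit, blue points a pooled summit only and white points none. The sls-1.12 genes lie at 35.3% or below, the smy-7 genes at 99.6% or above.

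Repeated sequence was common in the genes but less so in their flanks. In 48 members no 50-base stretch of the gene was unique. Within the gene the median unique share was 33.6% in occupied members and 16.4% in the others, and for the window as a whole it was 92.8% and 90.5%. Among the 81 genes with windows at least 80% unique, 15 were occupied (18.5%, 11.6% to 28.3%), and of the 30 below it 1 was, F08G2.11. The sources used here do not say how the authors placed reads with several matches.

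**Figure D3:**
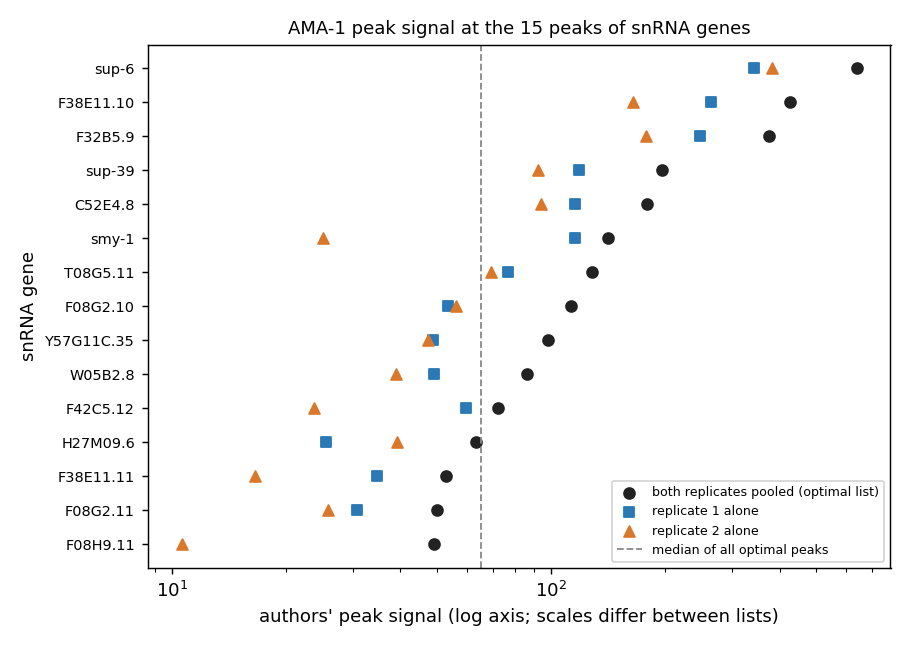
Authors' peak signal (log axis) at the 15 strongest peaks of occupied snRNA genes in the optimal list (circles), replicate 1 (squares) and replicate 2 (triangles), with the median of all optimal peaks, 65.5, as a dashed line. The optimal values run from 49.2 at F08H9.11 to 638.7 at sup-6, and 11 of 15 lie right of the line.

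Each replicate alone gave a similar number of genes. Of the 111 members, the 1861 strongest peaks of replicate 1 reached 15 and those of replicate 2 reached 17. The shares of tiles reached were 1.9% and 1.81%. In both replicates 12 of the 111 members were reached, against 0.774% of tiles. All 12 were optimal. At the edge of the optimal list, whose lowest signal was 47.4, stood F08H9.11 at 49.2, F08G2.11 at 50.1 and F38E11.11 at 52.8 on the inside. Outside it, in the pooled list, were ZK897.4 at 44.7, F54D8.7 at 42.8 and the 3 neighbours T27E4.10, T27E4.12 and T27E4.22, which share a peak of 42.2. The T27E4 genes were among the strongest of replicate 1 (37.1) only, and ZK897.4 (30.3), F54D8.7 and F56H6.14 (20.04) among those of replicate 2 only. Signal scales differ between lists, so ranks were compared: at the 14 peaks found in both whole lists, the rank was better in replicate 2 at 11.

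The summits lay at the far end of the genes. Of the 15 strongest optimal summits, 12 (80%) were past the annotated 3′ end, 2 inside the gene and 1 upstream. The median distance from the 5′ end was 191 bp. Measured separately, the median position was 32 bp past the 3′ end (from 126 bp before it to 388 bp past it). Of the 15, 10 lay 1 to 100 bp past the 3′ end. At sup-6 the summit was 59 bp past it, at F38E11.10 27 bp, at F32B5.9 34 bp, at sup-39 27 bp and at C52E4.8 24 bp. In the whole pooled list, 20 of 29 summits were past the 3′ end, with a median of 30 bp.

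**Figure D4:**
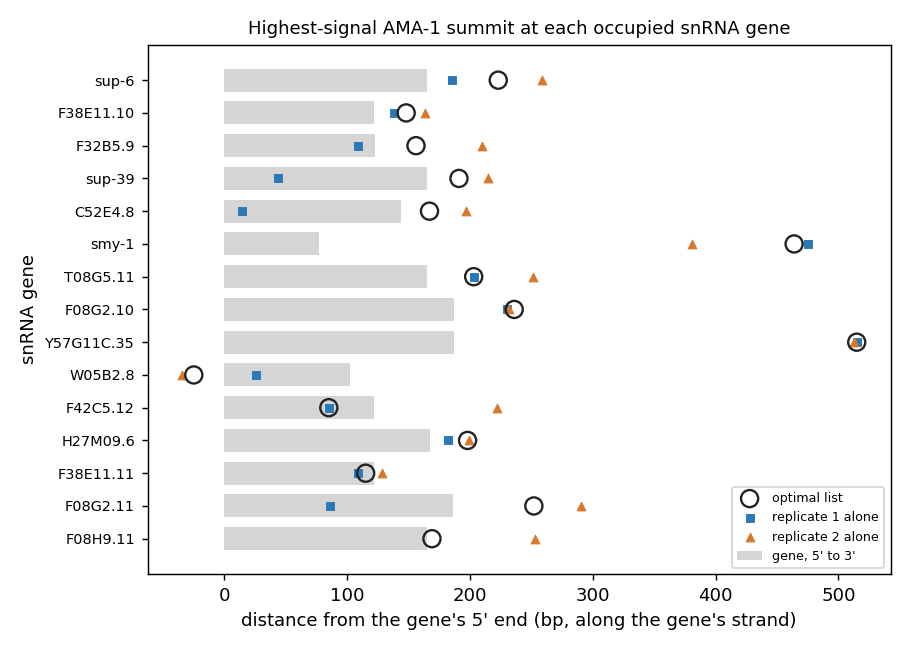
Position of the strongest AMA-1 summit at each occupied snRNA gene, in bp from the gene's 5′ end along its strand, in the optimal list (open circles), replicate 1 (squares) and replicate 2 (triangles). Grey bars are the genes, and 12 of 15 optimal summits lie right of their bar.

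The replicates placed the summits differently. Replicate 1 had 7 of 14 summits past the 3′ end and 7 inside the gene, with a median of 2 bp past it. In replicate 2, 14 of 15 lay past the end and none inside, with a median of 87 bp. The replicate 2 summit was further downstream at 11 of 14 genes. Over all 14 the median difference was 36.5 bp downstream (from 94 bp upstream to 204 bp downstream). The largest such gaps were at C52E4.8, where replicate 1 had its summit 14 bp and replicate 2 197 bp from the 5′ end, and at F08G2.11, where these were 86 and 290 bp. Only the strongest summit of each window was compared. The C52E4.8 window held 2 summits in each replicate, and that of F08G2.11 held 2 in replicate 1 and 1 in replicate 2. At sup-6, F38E11.10, H27M09.6, smy-1, T08G5.11, F08G2.10 and Y57G11C.35 the summits of both replicates lay past the 3′ end. Fragment lengths per replicate are not given here, and their part in this shift was not tested.

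**Figure D5:**
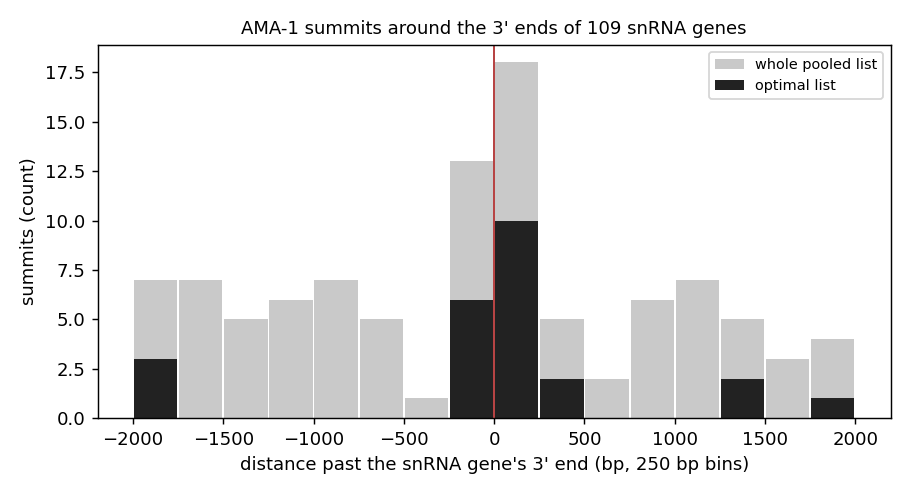
Optimal (black) and whole pooled (grey) summits in 250 bp bins around the 3′ ends of 109 snRNA genes, with distances along the gene's strand. Of the optimal summits, 6 lie in the bin before the end and 10 in the bin after it.

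Around the 3′ ends of 109 genes, leaving out mir-1831 and the overlapping T27E4.22, the bin from 250 bp before the end held 6 optimal summits, the next bin past it 10 and the one after that 2. From 1750 to 250 bp before the end there were 0. The pooled list had 13, 18 and 5 in the same 3 bins, and between 1 and 7 in every other bin. The share of summits past the gene end, 80% here, was also taken for other short genes. Each class's strongest optimal summit per gene was counted in the same way. Past the 3′ end lay 4 of 12 summits at SL2 genes (33.3%) and 25 of 60 at small nucleolar RNA genes (41.7%). At microRNA genes it was 3 of 26 (11.5%) and at tRNA genes 9 of 21 (42.9%), beside 12 of 15 at the snRNA genes. Occupied genes numbered 13 of 18 for SL2, 60 of 346 for small nucleolar RNAs (17.3%), 31 of 261 for microRNAs (11.9%) and 23 of 612 for tRNAs (3.76%). The median signal at occupied genes was 183.4 for SL2, 101.9 for small nucleolar RNAs, 99.1 for microRNAs and 65.1 for tRNAs, beside 112.8 for the snRNA genes. These differences between classes were not tested.

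Neighbouring protein-coding genes lay close to some of the peaks. Of the 111 members 60 overlap a protein-coding gene. Of the 15 summits, 7 were more than 500 bp from any protein-coding end and outside coding exons, 4 lay within 500 bp of a 5′ end and 3 within 500 bp of a 3′ end, leaving sup-6 in a coding exon far from either. The summit at F38E11.10 was 1 bp past the 3′ end of hsp-12.3, a small heat shock gene. F32B5.9 had its summit in an exon that codes for CPZ-1, a cathepsin protease encoded on the opposite strand, 326 bp from the 5′ end of cpz-1. At sup-6 it lay in a coding exon of F58G1.7, 3514 bp from the start of that gene. C52E4.8 had its summit 249 bp past the end of the proteasome gene rpt-1 and at -562 bp from the start of snr-4, an Sm protein gene. The signal of an snRNA gene and that of a gene beside it cannot be told apart in these lists.

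Short runs of letters were searched in the 100 bases before each gene, on both strands. CGNAACCC was found before 36 of 111 snRNA genes (32.4%, 24.4% to 41.6%), against 0.335% of protein-coding genes and 1% of other noncoding genes of that length. All 36 started between 74 and 56 bases before the gene, with a median of 61. It stood before 10 of 16 occupied genes and 26 of 95 others, and before 10 of 18 SL2 genes. By family it was present at 9 of 13 sup-6, 11 of 12 F38E11.10, 6 of 6 smy-7, 2 of 5 C52E4.8 and 5 of 23 W05B2.8 genes, and at 0 of 19 F08G2.10 and 0 of 10 sls-1.12 genes. The smy-7 family thus carries the run at every gene with none occupied. With A as the third letter the run stood before 10 members, 5 of them in the F38E11.10 family, and with G before 26. The run before mir-1831 and that before sup-39 are the same bases, counted once for each gene.

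TGTCNG was found before 64 of 111 genes (57.7%), of which 13 are among the 16 occupied, and before 9.69% of protein-coding genes. It also stood before 17 of 18 SL2 genes (94.4%) and 13.8% of other noncoding genes of the members' length range. The 64 genes include 18 of 19 F08G2.10 and all 10 sls-1.12 genes, which lack the first run. TATATAA stood before 18 of 111 genes (16.2%), against 4.05% of protein-coding genes, and 15 of these 18 belong to the W05B2.8 family. W05B2.8 was the only occupied gene with it. The related run TATAAA stood before 17.1% of members, 19.3% of protein-coding genes and 9.38% of other noncoding genes of the members' length range. It was found before 10 of the 23 W05B2.8 genes and 2 of 18 SL2 genes. A box of this kind between the upstream element and the gene is known from U6 genes of vertebrates. The 100 bases before 4 occupied genes show how the runs, in capitals, are arranged.
sup-6 upstream: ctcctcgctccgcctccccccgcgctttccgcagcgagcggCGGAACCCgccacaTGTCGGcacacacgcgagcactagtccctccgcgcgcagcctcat
F38E11.10 upstream: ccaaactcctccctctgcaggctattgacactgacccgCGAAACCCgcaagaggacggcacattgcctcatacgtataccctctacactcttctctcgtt
C52E4.8 upstream: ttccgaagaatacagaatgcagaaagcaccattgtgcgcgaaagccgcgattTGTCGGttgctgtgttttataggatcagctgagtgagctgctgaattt
W05B2.8 upstream: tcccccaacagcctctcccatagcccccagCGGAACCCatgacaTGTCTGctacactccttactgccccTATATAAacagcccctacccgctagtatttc
They span chrII:12944968-12945067, chrIV:9444542-9444641, chrV:11980018-11980117 and chrIII:10989579-10989678, read on each gene's strand. The W05B2.8 stretch holds all 3 runs, sup-6 the first and the second, F38E11.10 the first and C52E4.8 the second. A missing run says only that these letters are not in this window.

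Protein-coding genes of the snRNA pathway were read as well, from a list of Sm and LSm ring proteins, snRNP proteins, SNAPc and Integrator subunits and factors of snRNP assembly. The list also counts genes of wider roles, among them tbp-1 with SNAPc, sut-2 with U2, and xpo-1, imb-1, ncbp-1 and ncbp-2 with assembly. Of those named, sut-2, imb-1 and ncbp-1 had an optimal summit. Of all 71 listed, 64 matched a gene and 16 had an optimal summit within 500 bp of the 5′ end (25%, 16.0% to 36.8%), against 4.8% of all protein-coding genes. That count rested on replicate 1: the strongest peaks of replicate 2 reached 4 of these genes and those of replicate 1 reached 18. The LSm ring genes, most of whose products bind the end of U6 RNA, had 4 of 7 occupied. They were led by lsm-5 with 192.9 in the optimal list, 150.8 in replicate 1 and 41.6 in replicate 2. From the 5′ end these summits lay at -463 bp for lsm-5, 483 bp for lsm-7, -298 bp for lsm-4 and -141 bp for lsm-6. Only that of lsm-6 was within 250 bp, and a neighbouring gene as the source of the others was not tested. Integrator, which cuts snRNA 3′ ends, had 4 of 11, with ints-4 at 83.5 and ints-8 at 67.7. Of the Sm ring genes snr-3 was the only one of 7 (59.8), and prp-8, a U5 protein gene, had 63.5. No optimal summit lay at the 8 genes counted with SNAPc, tbp-1 among them (0% to 32.4%), or at the 3 U1 protein genes (0% to 56.1%). Both intervals include the 4.8% of all protein-coding genes, so these counts do not set the groups apart. In the pooled list 3 SNAPc genes and 1 U1 protein gene had a summit. At snpc-3.4 the pooled signal was 46.7, just below the lowest optimal signal of 47.4. The 16 occupied genes had a median signal of 57.4, against 65.9 for all occupied protein-coding genes and 112.8 for the snRNA genes.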

How the data were processed

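The authors deposited narrowPeak lists for each replicate, for both replicates pooled and for a reproducible set called optimal. Per the file headers and deposited descriptions, each peak has a signal value and a summit. The deposited signal ranks peaks within a list and has no stated scale. The sources used here name no caller, aligner or reproducibility threshold. Read depth is unknown, so intervals are 95% Wilson intervals that cover counting error over genes only, and genes of a family share sequence. The whole lists of the replicates and the pool hold 30000 peaks each. The optimal list equals the 1861 strongest pooled peaks, and the 1861 strongest peaks of each replicate were used beside it.

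Members were matched to RefSeq symbols by WormBase ID (111 matched), because 44 share a name in Ensembl release 115. Families join genes whose edit-distance identity is at least 80%. Uniqueness is the share of 50-base stretches found once in the nuclear genome on either strand. Positions, sequences and motifs were read from WBcel235 (ce11) with Python 3.11.15, NumPy 2.4.6 and Numba 0.67.0, and plots were drawn with matplotlib 3.10.9. The counting was tested on simulated peaks. Named genes were the occupied members, the 5 strongest outside the optimal list and members with a gene name of their own. The remaining genes named were chosen after their values were seen. The members, motifs and lists were chosen with earlier results of these data known. The ce10 lists were not used here. Some gene sequences are not reported here.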

Additional observations from a re-analysis of the deposited data

How the results depend on the processing

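Of 61 alternatives for 11 results, 49 stayed close to the main value, 12 moved and 0 changed direction. Close meant within 1.5 times the main value for counts and signals, and within its Wilson interval for shares. For median positions it meant within a spread taken from the gap between the replicates. The single-replicate alternatives thus set the limit by which they were judged. Only median positions could change direction. Counting summits inside the gene only gave 4 members, 4 peaks and a median signal of 64.7. The whole pooled list gave 33 members and 29 peaks, and the whole replicate lists 26 members in both. Away from protein-coding ends lay 11 occupied members at 250 bp and 1 at 1000 bp. CGNAACCC was found in 0% of members in the nearest 50 bases, because all 36 of its runs start 74 to 56 bases before the gene. The other upstream runs were not varied in this way. Of the snRNP and transcription genes, 10 were reached within 250 bp.

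Either replicate's 1861 strongest peaks alone gave 15 to 17 members, 12 to 16 peaks, and 7 to 8 members away from protein-coding ends. The median summit lay 161.5 to 218.5 bp from the 5′ end and 19 to 85 bp past the 3′ end. Past it lay 58.3% to 87.5% of summits. For the snRNP and transcription genes 4 to 18 were found. The whole replicate lists, read at the optimal members only, gave medians of 2 bp past the 3′ end in replicate 1 and 87 bp in replicate 2. There 7 of 14 and 14 of 15 summits lay past it. The causes were not tested. The measures from the 3′ end were added after seeing the data. No paired analysis was possible because the series holds 1 group. Repeated sequence and the unknown depth limit what a missing summit shows.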
